A study of Mus musculus with 46 samples.

Results

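The genes described are 42 named genes of mitosis and the spindle: regulators of mitotic entry, mitotic kinases and the spindle checkpoint, the chromosomal passenger complex, partners of the anaphase-promoting complex, centromere and kinetochore proteins, spindle motors, proteins of the central spindle and cytokinesis, and condensin and topoisomerase. They were picked by name, and each was read from the probe set that names that gene alone and had the highest mean level over all arrays. Of the 42 genes 41 could be read this way, out of 18193 genes read in all, and Ccnb1 was not analysed here. Of the 41, 34 passed a filter on dim probe sets (above the median of all values, 5.56 on the log2 scale, on at least 5 arrays), which 13239 genes passed. The 7 read genes that did not pass were Bub1, Kif20a, Melk, Ncapg, Ndc80, Nuf2 and Ttk. Several genes passed only through the arrays at the time when they were high, so counts over the 34 are given beside counts over all 41 and support nothing on their own.

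The samples were livers of male C57BL/6N mice aged 8 to 10 weeks, read on 46 Affymetrix Mouse Genome 430 2.0 arrays. Every treated mouse had been given carbon tetrachloride (CCl4), a solvent that hepatocytes convert to a toxic radical, by injection into the peritoneum at 1.6 g/kg in olive oil. There were 5 arrays at each of 7 times (2 h, then 8 h, then 1 d and 2 d, with 4 d, 6 d and 8 d after them) and 6 at the last time, 16 d. The 5 control arrays came from untreated mice, and every difference from control therefore includes whatever the injection and the oil did. Nothing in the labels says that the numbered arrays of a group are separate mice, and the p-values reflect array-to-array spread that may be technical. No strain other than C57BL/6N and no transgene or deletion is named for any group. Liver pieces hold many cell types, and more dividing cells and more RNA per dividing cell cannot be told apart. Values are RMA expression values on the log2 scale, on which a difference of 1 is a doubling, and levels are compared within a gene only, never between probe sets.

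Hepatocytes of the adult liver rarely divide, and after injury that kills part of them the remaining cells re-enter the cell cycle, copy their DNA and pass through mitosis. Cyclin-dependent kinase 1 with its A and B cyclins drives a cell into mitosis, the spindle checkpoint holds it until all kinetochores are attached, and the anaphase-promoting complex then marks cyclins and other proteins for destruction so that the cell can divide. Transcripts of these genes are made mainly in G2 phase and mitosis, and many of their promoters carry CCAAT boxes and a short element called the cell cycle genes homology region, known for repression in resting cells.

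Because the members share a time course (given after the sequences), 5 of their promoters are shown, each as the 120 bases before the annotated start, from RefSeq on build GRCm38.p6 of the mouse genome. They belong to Cdk1, the kinase of mitotic entry (chr10:69352913-69353032, minus strand), Ccnb2, one of its B cyclins (chr9:70421555-70421674, minus strand), Cdc20, an activator of the anaphase-promoting complex (chr4:118437344-118437463, minus strand), Ube2c, a ubiquitin-conjugating enzyme of that complex (chr2:164769809-164769928, plus strand), and Kif11, the motor that pushes spindle poles apart (chr19:37376262-37376381, plus strand). They are written 5′ to 3′ along the gene, and capitals mark TTTGAA, which reads TTCAAA from the opposite strand, then TTCGAA, which reads the same from both strands, and CCAAT, which reads ATTGG from the opposite strand.
Cdk1: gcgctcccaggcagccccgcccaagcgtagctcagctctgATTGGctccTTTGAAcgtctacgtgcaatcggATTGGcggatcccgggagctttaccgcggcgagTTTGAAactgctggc
Ccnb2: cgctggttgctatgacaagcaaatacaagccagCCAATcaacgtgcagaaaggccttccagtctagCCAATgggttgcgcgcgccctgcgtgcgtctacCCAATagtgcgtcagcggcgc
Cdc20: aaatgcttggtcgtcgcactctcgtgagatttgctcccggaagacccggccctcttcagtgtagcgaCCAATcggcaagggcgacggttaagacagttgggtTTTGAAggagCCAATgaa
Ube2c: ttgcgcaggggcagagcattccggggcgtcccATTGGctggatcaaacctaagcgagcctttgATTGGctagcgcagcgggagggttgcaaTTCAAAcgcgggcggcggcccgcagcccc
Kif11: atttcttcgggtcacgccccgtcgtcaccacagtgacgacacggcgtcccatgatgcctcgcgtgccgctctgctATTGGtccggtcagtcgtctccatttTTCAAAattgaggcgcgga
In Cdc20, Ube2c and Kif11 the TTTGAA or TTCAAA nearest the start begins 18, 29 and 19 bases before it, downstream of at least 1 CCAAT or ATTGG. Cdk1 holds TTTGAA at 71 and 15 bases before the start. In the window shown Ccnb2 has 3 CCAAT and no TTTGAA, which in the wider window it holds at position -167, counted from the start, and just after the start. Promoters of 250 bases before to 50 after the start were on hand for 35 of the 42 genes (no sequence was matched for Aurkb, Ccna2, Foxm1, Kif20a, Pbk, Smc4 and Tpx2). TTTGAA, on either strand, was in 27 of the 35 (77.1%) and in 20.2% of the promoters of 27025 genes. TTCGAA was in 3 of the 35 (8.57%) and 1.8% of all, and either of these motifs in 28 (80%) against 21.7%. CCAAT was in 27 (77.1%) against 41.1%, at least 2 of them in 18 (51.4%) against 13.3%, and CCAAT together with TTTGAA or TTCGAA in 25 (71.4%) against 8.61%. The letters of TTTGAA and TTCGAA cannot overlap, whereas CCAAT and its reverse ATTGG can share 2 bases and either can share 1 with TTTGAA, and a match describes the letters of the window and is no evidence of a bound factor. The 7 promoters with neither TTTGAA nor TTCGAA in this window were those of Birc5, Ccnb1, Nusap1, Cenpe, Nuf2, Mad2l1 and Melk.

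Over the genes past the filter, arrays of the same group correlated with r of 0.947 to 0.993. Genes read on the same array do not count as replicates of each other. The summed level of the 7 hepatocyte markers read (Alb, Apoa1, Ttr, Cps1, Hnf4a, Tat and Fgb) was 16.56 to 16.69 on the log2 scale in controls and 16.58 to 16.65 at 2 d, so the tissue carried its defining markers. Such a sum is weighted toward its brightest genes and can hide falls of single markers. Of the 7, Cps1 and Tat were lower at 2 d, as given with the cell markers further on. The number of arrays limits the precision, and errors after ± are standard errors of log2 differences from a limma fit of all 46 arrays unless an SD is named. The fit used 1 spread per gene for all 9 groups. For the members the spread was widest at 2 d (median SD 0.64, against 0.24 at 4 d and 0.18 in controls). Errors and p-values of comparisons that include 2 d, and errors of shares of the 2 d rise, are therefore likely too small. Those of comparisons without 2 d may be too large.

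At 2 d the mitosis and spindle genes rose together. In a fit over all 18193 genes read, 36 of the 41 were higher than in controls and 1, Cenpf, was lower (adjusted p under 0.05), where 16.4% of all genes read were called higher. The fall of Cenpf (-0.23 ± 0.08, adjusted p = 0.0156) was lost without array 1 at 2 d and with cyclic loess scaling. It also depended on the probe set, since a dimmer one of Cenpf rose at 2 d, as given with the probe sets further on. The share of genes read called lower was 16.9%. Over the genes past the filter 29 of 34 rose, against 21.1% of genes, and 1 fell, against 18.9%. The median difference over the 41 was 2.36 on the log2 scale, against -0.05 over all genes read, and the differences ran from -0.23 (Cenpf) to 4.54 (Birc5). Of the 36 that rose 30 were at least 2-fold higher. All 5 arrays at 2 d lay above all 5 control arrays in 35 of the 41 genes, against 12.2% of genes. The mean at 2 d was the highest of the 9 groups in 36 genes, and in 35 of the 36 that rose the next highest group was 4 d. From 1 d to 2 d 36 of the 41 rose, against 13.3% of genes read (29 of 34 past the filter, against 17.4%), with a median of 2.51.

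**Figure D1:**
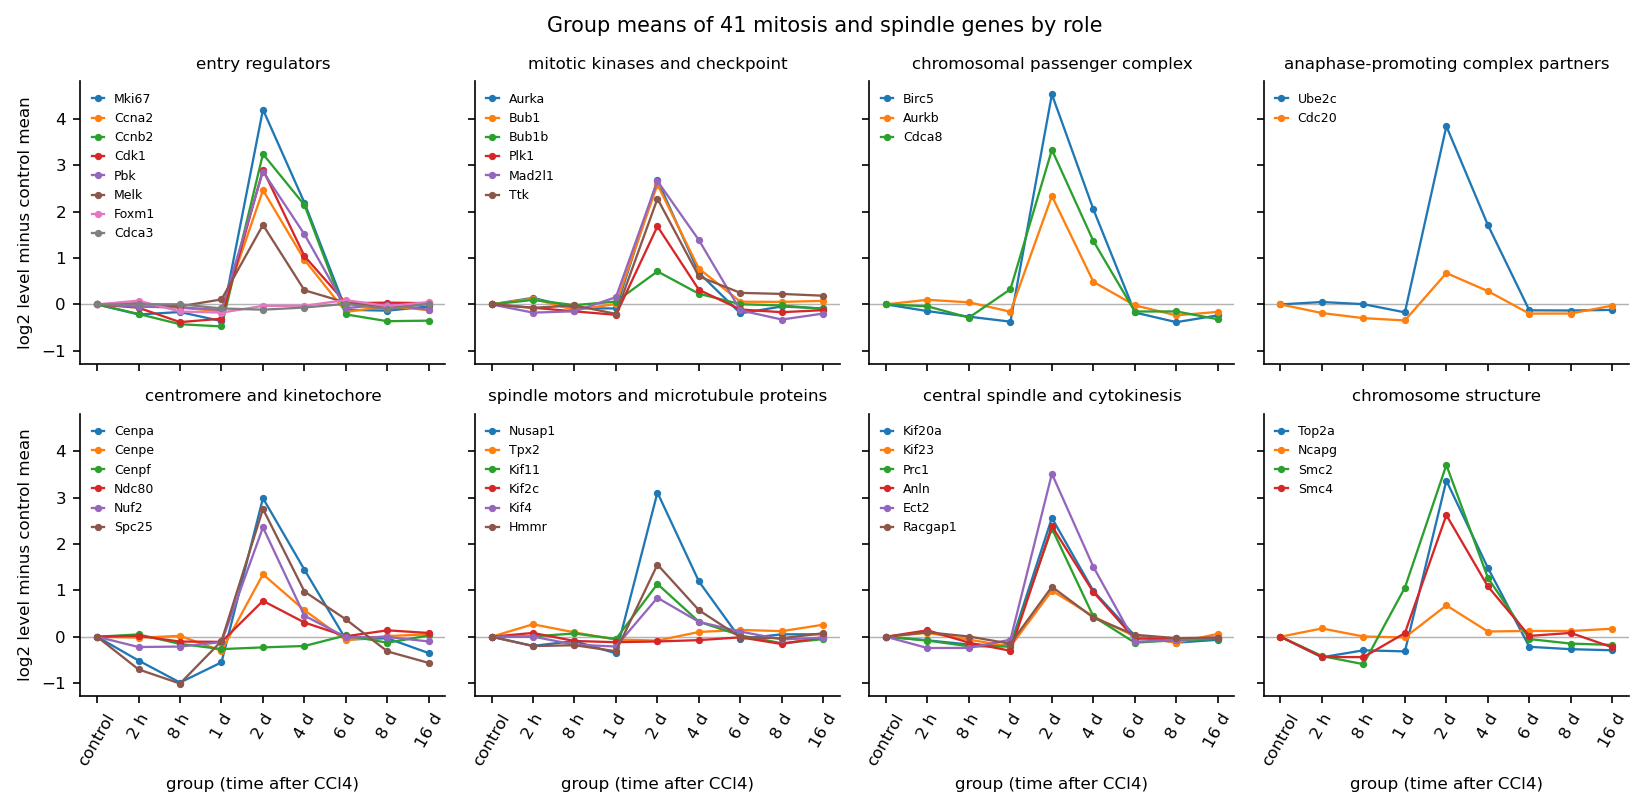
Group means of the 41 genes read, as the log2 level minus the control mean (vertical axis), for controls and the 8 times after CCl4 (horizontal axis, unevenly spaced in time), with 1 panel for each role and 1 line for each gene. Most lines lie near 0 up to 1 d, are highest at 2 d, are lower at 4 d and are near 0 again from 6 d. The lines of Foxm1, Cdca3, Cenpf, Kif2c and Tpx2 stay near 0 throughout.

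Among the regulators of mitotic entry, 6 of the 8 read rose at 2 d and Foxm1 and Cdca3 did not pass the test. Mki67, which encodes the proliferation antigen Ki-67 that coats mitotic chromosomes, read 5.31, 4.65, 4.87, 4.73 and 4.82 on the control arrays and 9.57, 8.02, 9.53, 9.34 and 8.94 at 2 d. It read 7.50, 6.32, 6.88, 7.07 and 7.58 at 4 d and 4.71, 4.79, 4.72, 4.93 and 4.63 at 6 d. All arrays at 2 d lay above all at 4 d, and those above all control arrays, while the arrays at 6 d overlapped the controls. The lowest and highest values were 4.57 and 4.74 at 2 h, 4.43 and 5.04 at 8 h, 4.15 and 4.73 at 1 d, 4.54 and 5.08 at 8 d, and 4.68 and 5.02 (median 4.79) at 16 d. Mki67 was thus 18.5-fold higher at 2 d (4.21 ± 0.19, adjusted p = 2.6e-20) and 4.58-fold higher at 4 d (2.19 ± 0.19, adjusted p = 6.01e-11) than in controls.

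Cdk1, the kinase of mitotic entry, read 7.48, 6.90, 7.03, 7.20 and 7.01 in controls, 10.27, 8.89, 10.73, 10.19 and 10.08 at 2 d, 8.29, 7.90, 8.24, 8.09 and 8.31 at 4 d, and 7.17, 7.17, 7.05, 7.22 and 7.14 at 6 d. Its arrays at 2 d and at 4 d overlapped neither each other nor the controls. It was 7.50-fold higher at 2 d (2.91 ± 0.17, adjusted p = 1.13e-17) and 2.06-fold higher at 4 d (1.04 ± 0.17, adjusted p = 1.85e-05).

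Ccnb2, a B cyclin, read 5.80, 5.32, 5.14, 5.25 and 5.16 in controls and 9.73, 6.85, 9.87, 8.56 and 7.90 at 2 d. It read 7.90, 7.32, 7.33, 7.04 and 7.82 at 4 d and 5.14, 5.01, 5.14, 5.17 and 5.13 at 6 d. Array 2 at 2 d lay below all arrays at 4 d, so these groups overlapped, and both lay above all controls. Ccnb2 was 9.49-fold higher at 2 d (3.25 ± 0.28, adjusted p = 2.17e-12) and 4.42-fold higher at 4 d (2.15 ± 0.28, adjusted p = 7.96e-07). Ccna2, the A cyclin, rose by 2.46, the mitotic kinase Pbk by 2.87 and Melk, a kinase of the AMPK family, by 1.72 on the log2 scale at 2 d.

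All 6 kinases and checkpoint genes rose at 2 d. Plk1, the polo-like kinase of centrosomes and kinetochores, read 5.43, 5.34, 5.47, 5.33 and 5.29 in controls, 7.60, 5.99, 7.77, 7.06 and 6.87 at 2 d, 6.02, 5.74, 5.36, 5.72 and 5.59 at 4 d, and 5.29, 5.39, 5.39, 5.15 and 5.10 at 6 d. The arrays at 4 d overlapped those at 2 d (array 2) and those of controls. Plk1 was 3.22-fold higher at 2 d (1.69 ± 0.17, adjusted p = 1.54e-10), while its difference at 4 d (0.32 ± 0.17) did not pass the test (adjusted p = 0.326). Aurka, the Aurora kinase of spindle poles, rose by 2.68 and Mad2l1, the checkpoint protein Mad2, by 2.66. The checkpoint kinases Bub1 and Ttk rose by 2.59 and 2.28 and Bub1b by 0.71.

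The 3 genes of the chromosomal passenger complex, which corrects wrong spindle attachments and then acts in cytokinesis, all rose at 2 d. Its kinase Aurkb read 4.67, 4.71, 4.43, 4.74 and 4.72 in controls, 7.35, 6.00, 7.29, 7.33 and 6.99 at 2 d, 5.51, 5.01, 5.01, 5.29 and 4.88 at 4 d, and 4.51, 4.61, 4.69, 4.76 and 4.58 at 6 d. The groups at 2 d and 4 d overlapped neither each other nor the controls, although the difference at 4 d (0.49 ± 0.16) did not pass the test (adjusted p = 0.0563). Aurkb was 5.07-fold higher at 2 d (2.34 ± 0.16, adjusted p = 2.55e-15). Birc5, which encodes survivin, was 23.2-fold higher (4.54 ± 0.27) and Cdca8, which encodes borealin, 10.1-fold.

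Of the partners of the anaphase-promoting complex, Ube2c was 14.4-fold higher at 2 d (3.85 ± 0.24). Cdc20 read 7.21, 7.22, 7.25, 7.17 and 7.28 in controls, 8.58, 7.17, 8.24, 8.13 and 7.38 at 2 d, 7.68, 7.54, 7.57, 7.30 and 7.48 at 4 d, and 7.16, 7.16, 7.08, 6.85 and 6.88 at 6 d. It was the riser whose arrays at 2 d overlapped the controls, through array 2. Its rise at 2 d was 1.60-fold (0.68 ± 0.13, adjusted p = 9.67e-05), and its other probe sets, given with the probe sets further on, rose more.

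Of the 6 centromere and kinetochore genes 5 rose at 2 d. Ndc80, a subunit of the complex that binds microtubules at the kinetochore, did not pass the filter and read 4.50, 4.38, 4.18, 4.42 and 4.43 in controls, 5.02, 4.83, 5.60, 5.08 and 5.24 at 2 d, 4.82, 4.74, 4.59, 4.45 and 4.83 at 4 d, and 4.67, 4.12, 4.50, 4.42 and 4.25 at 6 d. The arrays at 2 d lay above all others named, although arrays 1 and 5 at 4 d came within rounding of array 2, and the arrays at 4 d overlapped the controls. Ndc80 was 1.71-fold higher at 2 d (0.77 ± 0.10, adjusted p = 1.3e-07 over all genes read). Nuf2 and Spc25, subunits of the same complex, rose by 2.36 and 2.76, Cenpa, the histone H3 variant of centromeres, by 2.99, and the kinetochore motor Cenpe by 1.35.

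Of the 6 spindle motors and microtubule proteins 4 rose at 2 d, and Kif2c, a kinesin that takes microtubules apart, and Tpx2, an activator of Aurora A, did not pass the test. Kif11 read 5.21, 5.28, 5.30, 5.13 and 5.18 in controls, 6.71, 5.65, 6.92, 6.43 and 6.08 at 2 d, 5.86, 5.43, 5.47, 5.49 and 5.47 at 4 d, and 5.28, 5.27, 5.24, 5.25 and 5.21 at 6 d. Array 1 at 4 d lay above array 2 at 2 d, and both groups lay above all controls. Kif11 was 2.20-fold higher at 2 d (1.14 ± 0.13, adjusted p = 5.22e-09), and its difference at 4 d (0.32 ± 0.13) did not pass the test (adjusted p = 0.154). Nusap1, which binds spindle microtubules, rose by 3.11, Hmmr by 1.56 and the chromosome-bound kinesin Kif4 by 0.84.

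All 6 genes of the central spindle and cytokinesis rose. Racgap1, which with the kinesin Kif23 forms centralspindlin, read 5.97, 5.90, 5.82, 5.80 and 6.12 in controls, 7.42, 6.46, 7.54, 6.89 and 6.71 at 2 d, 6.43, 6.32, 6.39, 6.23 and 6.32 at 4 d, and 6.03, 6.08, 5.92, 5.95 and 5.85 at 6 d. The groups at 2 d and 4 d overlapped neither each other nor the controls. Racgap1 was 2.11-fold higher at 2 d (1.08 ± 0.12, adjusted p = 5.17e-10) and 1.33-fold higher at 4 d (0.41 ± 0.12, adjusted p = 0.0189), a call that was lost with single arrays left out. Ect2, the exchange factor that activates RhoA at the cleavage furrow, rose by 3.52, the motor Kif20a by 2.57, the scaffold Anln by 2.39, the microtubule bundler Prc1 by 2.34 and Kif23 by 1.00.

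All 4 genes of chromosome structure rose. Top2a, the topoisomerase that untangles sister DNA, read 5.36, 4.94, 5.05, 5.08 and 4.90 in controls, 8.52, 7.70, 8.83, 8.47 and 8.66 at 2 d, 6.88, 6.30, 6.09, 6.45 and 7.05 at 4 d, and 4.77, 4.66, 5.00, 5.33 and 4.49 at 6 d. The groups at 2 d and 4 d again overlapped neither each other nor the controls. Top2a was 10.3-fold higher at 2 d (3.37 ± 0.19, adjusted p = 8.69e-18) and 2.81-fold higher at 4 d (1.49 ± 0.19, adjusted p = 3.63e-07). Smc2 and Smc4, the core of condensin, rose by 3.71 and 2.63.

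Ncapg, a regulatory subunit of condensin, read 4.99, 4.92, 4.83, 4.87 and 4.89 in controls, 5.73, 5.24, 5.73, 5.65 and 5.53 at 2 d, 5.11, 4.99, 4.98, 5.09 and 4.89 at 4 d, and 4.86, 5.02, 5.15, 5.07 and 5.03 at 6 d. Its arrays at 2 d lay above all the others named, and those at 4 d overlapped the controls. It was 1.60-fold higher at 2 d (0.68 ± 0.09, adjusted p = 1.21e-07 over all genes read).

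**Figure D2:**
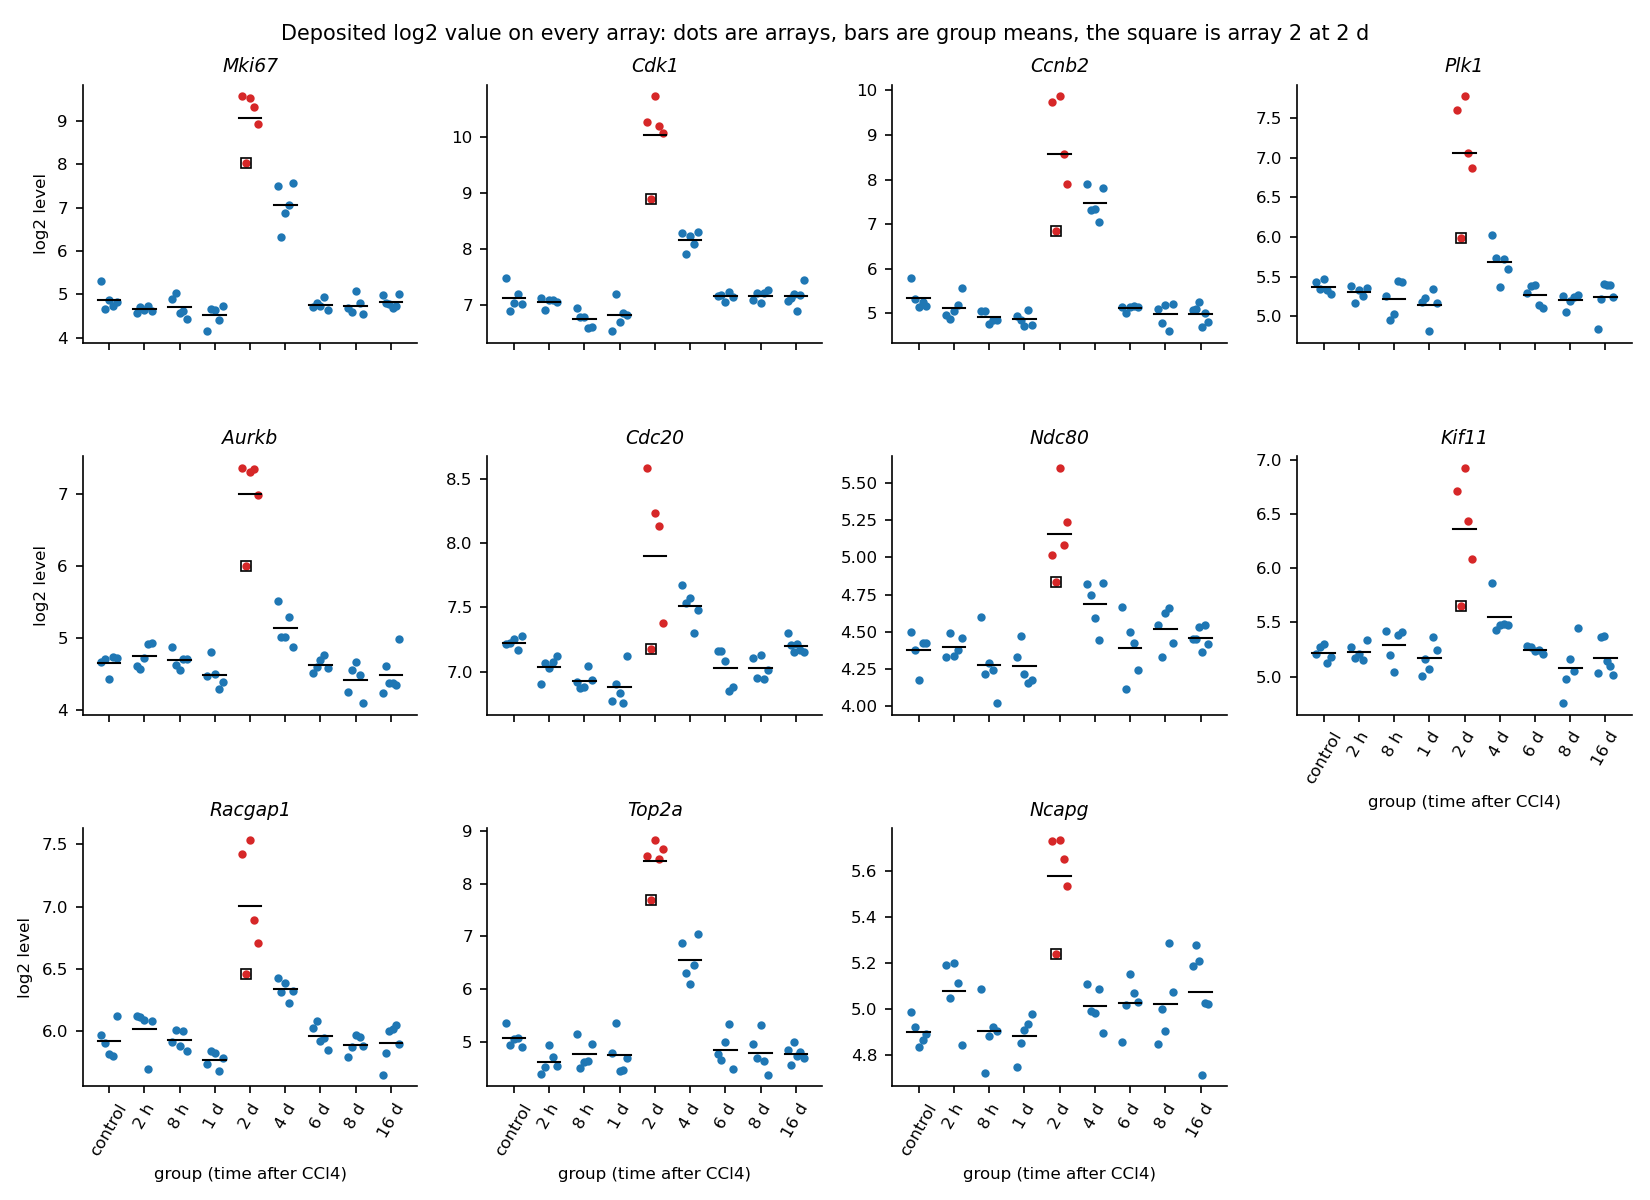
Log2 level on every array (vertical axis, a scale of its own in each panel) by group (horizontal axis) for 11 genes, with dots for arrays, bars for group means and a square around array 2 at 2 d. Array 2 at 2 d is the lowest of its group in each of the 11 panels. The arrays at 4 d overlap those at 2 d for Ccnb2, Plk1, Kif11 and Cdc20. In the other panels they lie between 2 d and control or overlap the controls.

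Before 2 d few members moved, and most of those that did fell. The same genes were called over the 41 as over the 34 at each of these times. At 2 h 1 gene was lower, Spc25 (-0.71 ± 0.21, adjusted p = 0.0108), against 13.8% of genes read (19.9% past the filter). By limma 0 were higher at 2 h, against 4.94% (6.41% past the filter), and 6 members had an unadjusted p under 0.05 in either direction. At 8 h 5 were lower, against 18.1% of genes read (24.2% past the filter), namely Spc25 (-1.01), Cenpa (-0.99), Smc2 (-0.59), Smc4 (-0.44) and Foxm1 (-0.15). By limma 0 were higher at 8 h, against 13% (17.7% past the filter), with 7 members at an unadjusted p under 0.05 in either direction. At 1 d 3 were lower (Cdc20 -0.35, Cenpf -0.27 and Foxm1 -0.18), against 21.2% of genes read (25.1% past the filter), and 1 was higher, against 18.6% (25% past the filter). These shares of members are below those of all genes. The calls moved with single arrays: over the 34, 0 to 2 were lower at 2 h, 3 to 6 at 8 h and 1 to 7 at 1 d with 1 array left out. The extremes at 2 h came without control array 5 (0) and without array 1 or 2 at 2 h or control array 3 (2). At 1 d they came without array 4 (1) and array 2 (7), and at 8 h the count of 3 came without array 3 at 8 h or control array 1 or 4.

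The member that rose at 1 d was Smc2, which read 5.51, 5.15, 5.30, 5.18 and 4.96 in controls, 6.93, 6.28, 6.24, 5.76 and 6.21 at 1 d and 9.22, 8.31, 9.12, 9.01 and 8.98 at 2 d. All arrays at 1 d lay between those 2 groups without overlap. It was 2.09-fold higher at 1 d than in controls (1.06 ± 0.18, adjusted p = 4.5e-06). From 8 h to 1 d Smc2 (1.65), Spc25 (0.92), Cdca8 (0.61) and Smc4 (0.52) rose, 4 of 41 against 15.2% of genes read (4 of 34 past the filter against 20.8%). From 2 h to 8 h Foxm1 (-0.23) and Cenpf (-0.21) fell, 2 of 41 against 11.8% of genes read (2 of 34 past the filter against 15.4%).

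The decline after 2 d took place in both intervals. From 2 d to 4 d all 36 genes that had risen fell (of 41 read, against 13.3% of genes read), or 29 of 34 past the filter against 17.9%, with a median of -1.42 over the 41, against 0.04 over all genes read. All arrays at 4 d lay below all arrays at 2 d in 21 of the 41, against 9.89% of genes. The falls ran from 0.39 (Cdc20) to 2.48 (Birc5) on the log2 scale, and Mki67 fell by 2.01 (4.04-fold). From 4 d to 6 d 25 of 41 fell, against 5.36% of genes read, or 23 of 34 against 7.3%, with a median of -0.60 over the 41. The largest falls in that interval were of Ccnb2 (-2.36 ± 0.28, 5.14-fold) and Mki67 (-2.31 ± 0.19, 4.96-fold), and 1 gene past the filter, Cenpf, rose by 0.23 (adjusted p = 0.0464), against 3.51% of genes, a call that was lost when all genes read were fitted (adjusted p = 0.0573).

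At 4 d the members were thus still partly above control: 23 of 41 were higher, against 3.55% of genes read, or 22 of 34 against 4.74%, with a median of 0.60 over the 41 and -0.01 over all genes read. All arrays at 4 d lay above all controls in 27 of 41, against 5.18% of genes. Without array 1 at 4 d 18 of 34 were called. From 2 d to 6 d 36 of 41 fell, against 18% of genes read, or 29 of 34 against 23.3%, and all arrays at 6 d lay below all at 2 d in those 36, against 12.5% of genes. Cenpf was higher at 6 d than at 2 d (0.26), 1 of 34 against 22%. Comparisons with 2 d share its 5 arrays and comparisons with control share the 5 control arrays, so their values stand side by side and are not independent.

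The share of the 2 d rise that was left, on the log2 scale and over the 36 genes that rose, had a median of 38.4% at 4 d, from 16.7% to 66.1%. At 6 d the median was -1.38%, from -29.4% ± 23.3 (Cdc20) to 18.5% ± 12.4 (Ncapg). Both of these genes had small rises at 2 d (0.68 each), so their shares are imprecise. Over 50% was left at 4 d in 4 genes, Ccnb2 (66.1% ± 7.61), Pbk (52.8% ± 5.22), Mki67 (52.2% ± 3.94) and Mad2l1 (52.1%). Under 25% was left in 6, Aurkb (20.8% ± 6.23), Nuf2, Plk1 (18.7% ± 9.33), Prc1, Melk and Ncapg (16.7% ± 12.5). On back-transformed levels the same shares were smaller, with a median of 19.7% at 4 d (from 8.74% for Prc1 to 40.4% for Ccnb2), so Ccnb2 had the largest share on both scales, while the order of other genes differed. By role the medians on the log2 scale ran from 28.2% for kinases and checkpoint to 45.6% for entry regulators, with overlapping ranges (18.7% to 52.1% and 17.8% to 66.1%), and differences between roles were not tested. Over the 29 genes past the filter the median percent of the 2 d rise left at 4 d was 40.4%, and 34.65% without array 2 at 2 d.

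**Figure D3:**
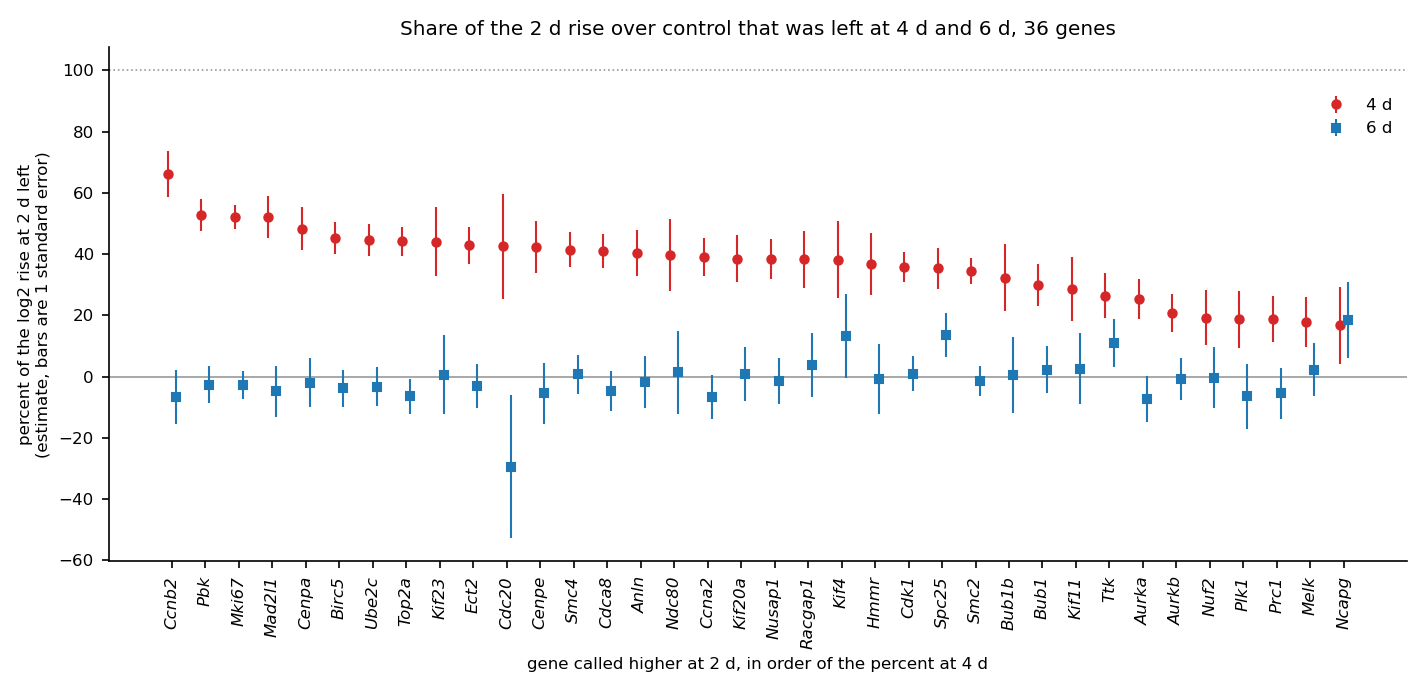
Percent of the log2 rise at 2 d over control that was left at 4 d (circles) and 6 d (squares) for the 36 genes called higher at 2 d, with bars of 1 standard error, in order of the percent at 4 d (horizontal axis). The circles fall from 66.1% for Ccnb2 to 16.7% for Ncapg and most neighbours differ by less than their errors, while the squares lie around 0. The errors rest on 1 spread per gene over all groups and are likely too small, because the spread was widest at 2 d.

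From 6 d on no member differed from control past the test. Few genes of any kind did at these times, so the counts are near the share of all genes. At 6 d 0 of 41 differed from control by limma, with 0 at an unadjusted p under 0.05. Of 18193 genes read, 3 were called higher and 0 lower (0.0227% of genes past the filter were called). In 0 members did all arrays at 6 d lie above all controls, against 0.819% of genes. At 8 d 0 were called, with 0 at an unadjusted p under 0.05, against 9 higher and 9 lower of all genes read (0.144% past the filter). At 16 d 0 were called, with 2 at an unadjusted p under 0.05, against 71 higher and 106 lower of all genes read (1.51% past the filter). The steps from 6 d to 8 d (0 called, 3 unadjusted, against 0.00755% of genes past the filter) and from 8 d to 16 d (0 called, 1 unadjusted, against 0% past the filter) likewise held no called member. All arrays of 1 gene, Cdc20, lay below all controls at 6 d, against 1.18% of genes. The largest differences from control were 0.37 at 6 d (Spc25), -0.38 at 8 d (Birc5) and -0.57 at 16 d (Spc25).

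The spread of the members between arrays was widest at 2 d. The median SD over the 41 was 0.64 at 2 d (n = 5), against 0.15 over all genes tested, 0.24 at 4 d against 0.12, and 0.18 in controls against 0.11. Array 2 at 2 d was the lowest of its group in 35 of the 36 genes that rose, with a median of 1.28 above the control means, against 3.15, 3.21, 2.64 and 2.33 on arrays 1, 3, 4 and 5. Arrays 1 and 3 were the highest in 18 genes each. Without array 2 at 2 d 29 of 34 members were still called higher at 2 d and 29 lower from 2 d to 4 d. Array 1 at 4 d was the highest of its group in 26 of the 36 and control array 1 in 28 of the 36, and without control array 1 the counts at 2 d and 4 d were again 29 and 22 of 34.

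The arrays at 2 d stood in another order for genes of earlier phases. Over 28 DNA replication genes the medians above control were 1.34, 1.31, 1.22, 1.65 and 2.14 on arrays 1 to 5, so array 2 was not the lowest and array 5 was the highest. Over 12 G1 cyclins and partners they were 0.31, 0.45, 0.39, 0.58 and 0.82. The summed levels of monocyte-derived macrophage markers were 10.88, 10.82, 10.42, 12.44 and 12.28 on the same arrays, those of hepatocytes 16.65, 16.61, 16.65, 16.58 and 16.59, and the 3 prime probe set of Gapdh exceeded its 5 prime probe set by 0.22 on array 2, within a range of 0.16 to 0.24 on the log2 scale over the 5 arrays (a wide gap goes with degraded RNA). Their part in the spread of the mitotic genes was not tested.

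**Figure D4:**
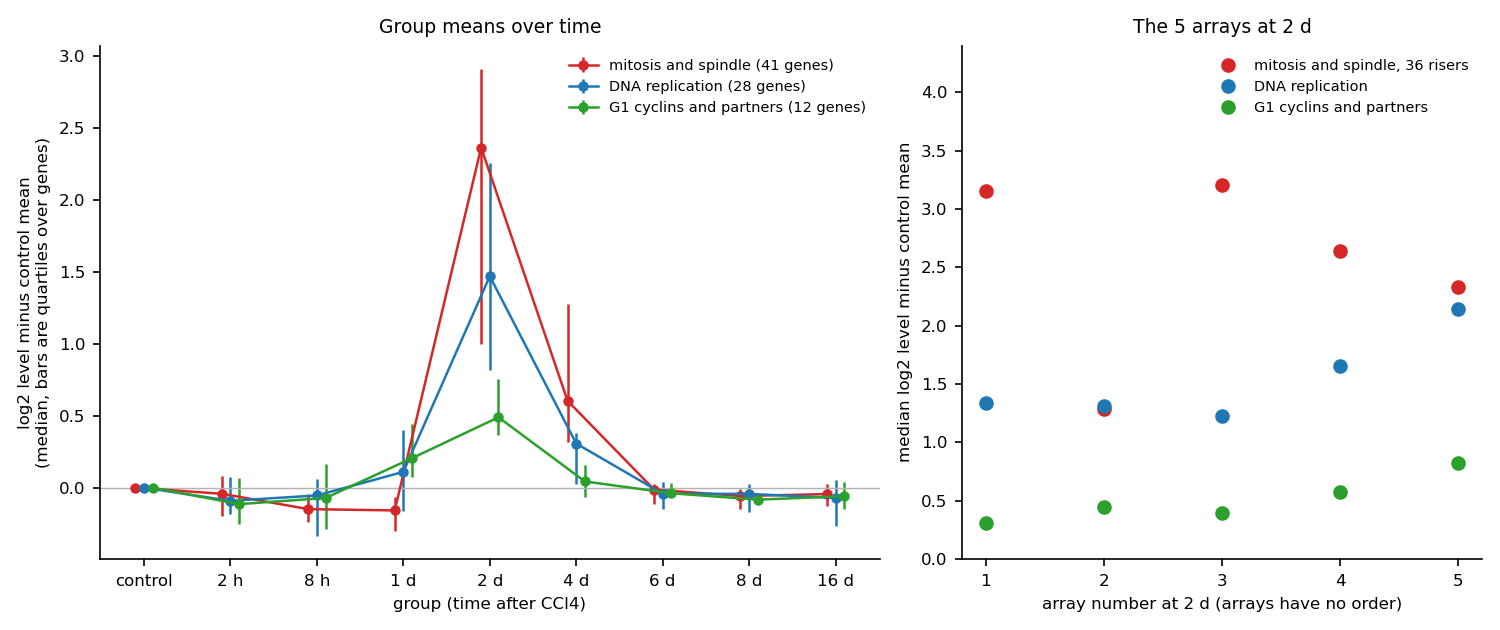
Left, median and quartiles over genes of the log2 level minus the control mean (vertical axis) by group (horizontal axis) for the 41 mitosis and spindle genes, 28 DNA replication genes and 12 G1 cyclins and partners. Right, the median of each list on the 5 arrays at 2 d, where the 36 mitotic genes that rose are lowest on array 2 (1.28) and the DNA replication genes are not.

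The choice of probe set decided which members rose. The 41 genes have 91 probe sets that name them alone, and in a fit over all 45101 probe sets 71 of the 91 were higher at 2 d and 2 were lower, against 12.6% higher among all probe sets. Each of the 41 had at least 1 probe set called higher, against 19.8% of genes. Of the 27 genes with several, 14 had another probe set that rose more than the one used. The 5 genes that did not rise were read from probe sets at or near a constant level: Cenpf, Cdca3, Kif2c, Tpx2 and Foxm1 differed at 2 d by -0.23, -0.11, -0.10, -0.08 and -0.03. Dimmer probe sets rose by 1.94 ± 0.20 for Cenpf, 2.82 ± 0.24 for Cdca3, 2.49 ± 0.37 for Kif2c, 2.31 ± 0.21 for Tpx2 and 0.58 ± 0.10 for Foxm1. That of Cdca3 went from 5.81 in controls to 8.63 at 2 d, 7.31 at 4 d and 5.63 at 6 d. For Cdc20 the 2 other probe sets rose by 4.19 ± 0.30 and 2.72 ± 0.21, against 0.68 for the one used. Probe sets that can bind several transcripts, such as those used for Aurkb, Cdc20 and Cdca3, are uncertain in this respect.

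**Figure D5:**
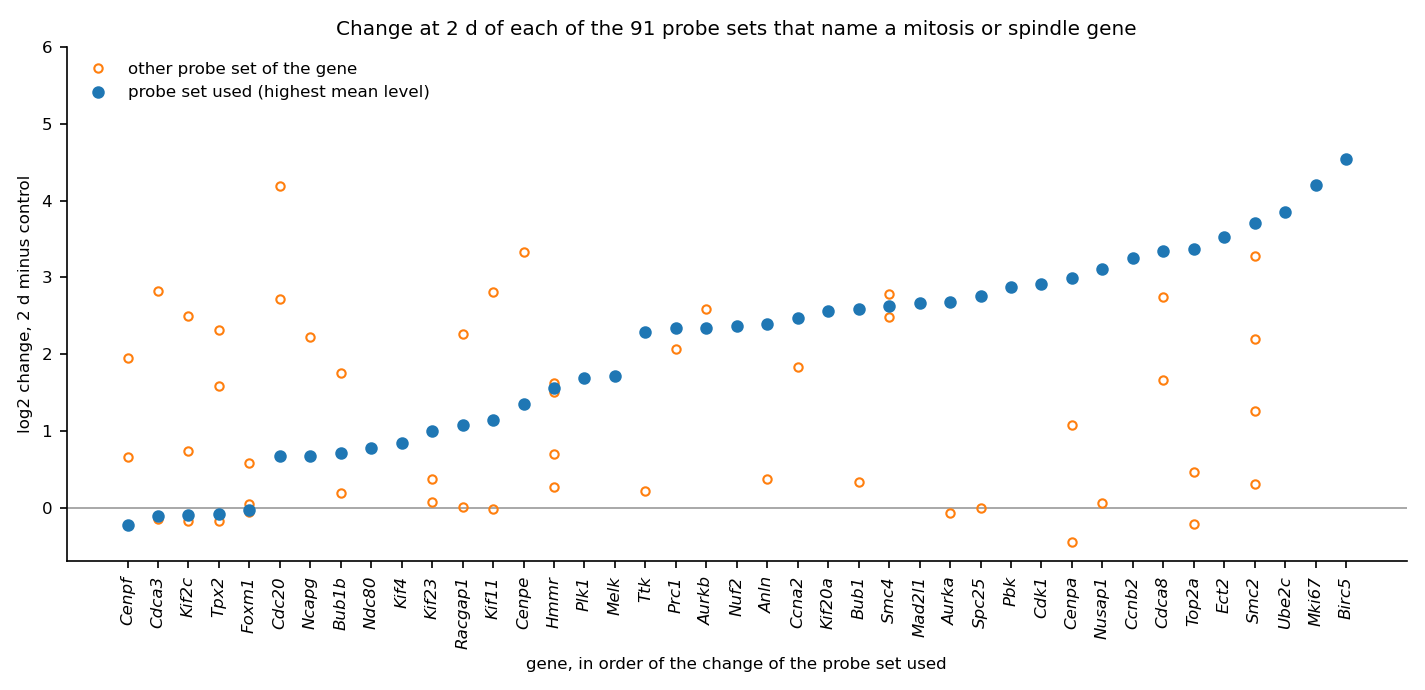
Log2 change from control to 2 d (vertical axis) of the 91 probe sets that name a gene of the list alone, by gene in order of the probe set used (horizontal axis), with filled circles for the probe set used and open circles for the others. The 5 genes at the left, whose used probe sets did not rise, each have an open circle above 0.5.

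Other genes of the same machinery, from lists of names, are given with the shares of all genes read, which were 16.4% higher and 16.9% lower at 2 d, 13.3% lower from 2 d to 4 d, 18.6% higher and 21.2% lower at 1 d, and 3.55% higher at 4 d. Of 58 other mitotic genes read, 46 rose and 3 fell at 2 d (28 and 3 of the 37 past the filter, whose median was 0.73), and 44 fell from 2 d to 4 d (26 of the 37). Ncapg2, a condensin II subunit, rose by 2.93 at 2 d and Cdca5, which encodes sororin, the protector of sister cohesion, by 2.64. The centromere proteins Cenpk and Cenpq rose by 2.49 and 2.42. Cks1b, a small partner of cyclin-dependent kinases, rose earlier, by 1.92 at 1 d and 2.31 at 2 d, and fell by 2.42 from 2 d to 4 d.

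Of 14 core subunits and partners of the anaphase-promoting complex read, 11 rose and 0 fell at 2 d (10 and 0 of the 13 past the filter, median 0.27), and 7 fell from 2 d to 4 d. Ube2s, which extends ubiquitin chains on its substrates, rose by 1.47 and fell by 1.24, and the subunits Anapc4, Anapc10 and Cdc27 rose by 0.86, 0.72 and 0.54. Cdc26, another subunit, fell by 0.37 from 2 d to 4 d. Of 16 brakes on the cell cycle 12 rose and 0 fell at 2 d (median 0.63), and 8 fell from 2 d to 4 d. Rbl1, a relative of the retinoblastoma protein, rose by 2.68 at 2 d and the repressor E2f8 by 1.49. Cdkn1a, the inhibitor p21, was already 1.74 higher at 1 d and 1.64 higher at 2 d, and Btg2, an antiproliferative gene, was 1.14 higher at 2 d. Cdkn2c, an inhibitor of Cdk4 and Cdk6, rose by 1.28 at 2 d and was still 1.07 higher at 4 d. Wee1, the kinase that holds Cdk1 inactive, was 0.45 higher at 2 d without passing the test (adjusted p = 0.0926).

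Of 28 DNA replication genes read, 6 rose and 3 fell at 1 d, against 18.6% and 21.2% of genes read, so the share that rose at 1 d was near that of all genes. Of the same 28, 22 rose and 2 fell at 2 d, against 16.4% and 16.9% (21 and 2 of the 26 past the filter, median 1.47), and 3 were higher at 4 d, against 3.55% (median 0.31). Rrm2 of ribonucleotide reductase rose by 3.94 at 2 d, and the helicase subunits Mcm5, Mcm6, Mcm4 and Mcm7 by 3.87, 2.83, 2.51 and 2.42. Pcna, the sliding clamp, rose by 0.93 at 1 d and 2.08 at 2 d. Of 12 G1 cyclins and partners read, 5 rose and 0 fell at 1 d, 11 rose at 2 d (of 11 past the filter, median 0.50) and 0 were higher at 4 d. Ccne2, an E cyclin, rose by 1.27 at 1 d and 2.49 at 2 d, and Ccne1 by 0.57 at 2 d. The growth regulator Myc rose by 2.11 at 1 d and 1.27 at 2 d, the D cyclin Ccnd1 by 1.29 at 2 d, its partner Cdk4 by 0.59 and the transcription factor E2f3 by 0.50. Beside these, 1 of 41 mitosis and spindle genes was higher at 1 d and 23 at 4 d, and the difference between the lists was not tested.

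The genes outside the list whose 9 group means were most like the mean profile of the members were Aspm (r = 0.997), Shcbp1 (0.997), Knstrn (0.995) and D17H6S56E-5 (0.994), then Sgo2a, Fbxo5, Pclaf, Cdkn3, Col1a1 and Ckap2 (down to 0.986). The 9 means share the arrays of each group, and r describes shape only: Col1a1, a collagen chain, rose by 0.75 at 2 d and D17H6S56E-5 by 4.08. Among the members r with the mean of the others was 0.881 to 0.999 for the 36 that rose and -0.589 to 0.008 for the 5 that did not. The 36 were picked by their rise at 2 d in these same data, and the mean profile is dominated by that rise. The gap in r between the 36 and the 5 was therefore largely fixed by the split and is no separate result.

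Markers of other cells also changed level, partly at other times. At 2 d, when 21.1% of genes past the filter were higher and 18.9% lower, 6 of 8 Kupffer cell markers tested were higher and 0 lower, as were 5 and 0 of 7 markers of monocyte-derived macrophages and 6 and 0 of 9 of stellate cells and myofibroblasts. Among them were Marco (2.20), Chil3 (3.57), Col3a1 (2.25) and Acta2 (2.08). At 4 d, when 4.74% of genes were higher, 6, 3 and 4 markers of these lists were higher and 0 lower. The summed log2 level of Kupffer cell markers was 11.46 to 11.70 in controls and lower at 2 h (10.91 to 11.33) and 8 h (10.98 to 11.22). It was 11.59 to 12.09 at 1 d, 11.78 to 13.08 at 2 d and 12.59 to 12.83 at 4 d, so its median was higher at 4 d (12.62) than at 2 d (12.07). That of monocyte-derived macrophages was 9.84 to 10.02 in controls and already above all controls at 1 d (10.70 to 11.19), with 10.42 to 12.44 at 2 d and 11.35 to 11.98 at 4 d. That of stellate cells was 10.24 to 10.59 in controls, 10.14 to 10.51 at 1 d, 11.02 to 12.28 at 2 d and 11.49 to 11.96 at 4 d. That of neutrophils had its highest median at 1 d (10.28, against 8.40 in controls and 8.82 at 2 d).

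Of the neutrophil markers 2 of 5 were higher and 1 lower at 2 d, and of the endothelial markers 2 of 7 were higher and 1 lower, where the endothelial shares were near the 21.1% and 18.9% of all genes. By limma 0 of 3 cholangiocyte and 0 of 3 T and NK cell markers were called. Lower at 2 d were 1 of 3 B cell, 3 of 3 erythroid and 1 of 4 pancreas markers, and Cps1 (-0.35) and Tat (-1.71) of 7 hepatocyte markers. The gap between the 3 prime and 5 prime probe sets of Gapdh was 0.27 to 0.43 in controls, 0.16 to 0.24 at 2 d and 0.14 to 0.31 at 4 d. In which cells the mitosis and spindle transcripts lay, and the part of these shifts in their rise, was not tested.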

How the data were processed

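Livers of untreated and CCl4-treated mice were read on 46 arrays in 9 groups taken from the labels. Log2 expression values were deposited by the authors. The submitters' processing notes name oligo 1.52.0 and RMA, a method that subtracts background, makes the probe distributions of all arrays alike and combines the probes of a set, so shifts common to most genes are removed. Scan dates and batches were not given in any source used. The unused per-sample columns numbered 0.

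The 45101 probe sets comprised 64 controls, 34945 with a single gene, 932 with several and 9160 with none. Current symbols were looked up through Entrez IDs and found for 34754 probe sets, whether or not the symbol changed. Each of 18193 genes was read from its probe set of highest mean, and 13239 passed a filter asking for 5 or more arrays above the overall median value. All arrays entered 1 limma fit of group means (limma 3.58.1, R 4.3.3, lmFit and eBayes, 37 residual degrees of freedom). P-values were adjusted by Benjamini-Hochberg over all 13239 genes in each contrast, and genes were called under 0.05. The 7 members below the filter, and every limma count over the 41, were taken from a like fit of all 18193 genes, with p-values adjusted over those genes. The script was tested on simulated data. The standard error of a share of the rise comes from the residual variance, pooled over all groups, by the delta method.

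Members, lists, motifs and alternatives were chosen with earlier results of these data known. Named were all members, the 4 called genes with the largest change in each of 5 other lists at 2 d and from 2 d to 4 d, always Cdkn1a, Wee1, Pcna, Mcm5 and Ccnd1, and the 10 genes most alike over 9 group means. Smc2 by array and the marker genes were added after their values were seen. The alternatives were other filters, scalings, probe set rules, variance models, array weights, samples in the fit, a fit with the replicate number as a block, and leaving out single arrays. A linear scale for the share of the rise was added after seeing the data. Plots were drawn with Python 3.11.15, pandas 2.3.3 and matplotlib 3.10.9.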

Additional observations from a re-analysis of the deposited data

Results flagged for a closer look

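Values on 1 array far from the others of its group were looked for by the gap to the nearest array over the group's range. Over all members 28 of 369 sets of a member and a group (7.59%) were picked out, where chance picks out about 1 in 20 of independent sets. The members share the same arrays and vary together, so these sets are not independent and nothing is drawn from the 2 shares. Of the 11 genes shown by array, Ccnb2 read 5.80 on control array 1 (5.15 to 5.32 on the others) and 5.01 on array 2 at 6 d (5.13 to 5.17). Aurkb read 4.43 on control array 3 (4.67 to 4.74) and 6.00 on array 2 at 2 d (6.99 to 7.35). Plk1 read 4.84 on array 1 at 16 d (5.22 to 5.41), Kif11 5.86 on array 1 at 4 d (5.43 to 5.49), and Racgap1 5.70 on array 4 at 2 h (6.08 to 6.12). The median over the 41 members above the control mean was 0.20 on control array 1 and -0.05 on array 1 at 8 h, each apart from the other arrays of its group.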

How the results depend on the processing

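The counts of members past the filter that rose at 2 d (29 of 34), fell from 2 d to 4 d (29), fell from 4 d to 6 d (23) and were higher at 4 d (22) kept their size within 1.5 times under every alternative except a filter on the mean over all arrays, which left 22 members, of which 17 rose at 2 d and from 1 d, 13 were higher at 4 d, 17 fell from 2 d to 4 d, 13 from 4 d to 6 d and 17 from 2 d to 6 d. With the mean of all probe sets 5 genes turned over. At 2 d they were higher by 0.13 (Foxm1), 0.85 (Cdca3), 0.79 (Cenpf), 0.74 (Kif2c) and 0.91 (Tpx2), Cdca3 was 0.47 higher at 4 d, and from 2 d to 4 d and to 6 d the changes were -0.38 and -0.92 (Cdca3), -0.46 and -0.73 (Cenpf), -0.58 and -0.745 (Kif2c) and -0.68 and -0.87 (Tpx2). Small counts moved. Lower at 2 h were 2 with equal array medians, 3 with array weights and 6 with only the compared groups, and higher 1 with cyclic loess or weights. Lower at 8 h were 2 with the mean of all probe sets and 8 with weights, and at 1 d 1 with equal medians, 6 with weights and 9 with only the compared groups. Lower at 2 d were 0 with cyclic loess or the mean of all probe sets, and at 4 d 1 with weights. From 2 h to 8 h 1 fell with equal medians, quantile normalization or loess, 0 with the mean of all probe sets and 4 with only the compared groups. From 8 h to 1 d 1 fell with weights or only the compared groups. From 4 d to 6 d 0 rose without the filter, with equal medians, loess, the mean of all probe sets, only the compared groups or the replicate block, and 2 with weights. From 2 d to 6 d 3 rose with quantile normalization, 2 with loess or only the compared groups and 0 with the mean of all probe sets. On the linear scale the median share left at 4 d was 20.97% in place of 40.4%. Leaving out 1 array gave 0 to 1 higher and 0 to 2 lower at 2 h, 3 to 6 lower at 8 h, 1 to 7 at 1 d, 0 to 1 at 2 d, 1 to 3 lower from 2 h to 8 h, 0 to 1 lower from 8 h to 1 d, 0 to 1 higher from 4 d to 6 d and 1 to 2 higher from 2 d to 6 d. The median percent of the 2 d rise left at 6 d ran from -3.469% to -0.323%, the latter without control array 1. The arrays behind these extremes were, besides those named in the report, array 1 at 2 d (0 lower at 2 d), arrays 1 and 4 at 2 h and 3, 4 and 5 at 8 h (1 lower from 2 h to 8 h), array 3 at 8 h or 5 at 1 d (1 lower from 8 h to 1 d), arrays 1, 3 and 5 at 4 d and 3, 4 and 5 at 6 d (0 higher from 4 d to 6 d), arrays 1 and 2 at 2 d and 5 at 6 d (2 higher from 2 d to 6 d), and array 2 at 2 h or control array 1 (1 higher at 2 h). The causes were not tested. Same-numbered arrays of different groups correlated in their deviations by -0.274 to 0.374 (median 0.009), and other pairs by -0.365 to 0.376 (median -0.004). The numbers thus showed little sign of pairing, and whether some arrays shared a batch was not tested. The replicate block changed no other count by over 1.5 times. Of changes of single members 2598 kept direction and call, 25 gained and 35 lost the call, and 14 turned direction. The number of arrays limits the precision, and 7 members were read below the filter on dim probe sets.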
